A study of Homo sapiens with 8 samples.

Results

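The high mobility group (HMG) genes described here are HMGA1, HMGA2, HMGB1, HMGB2, HMGB3, HMGN1, HMGN2 and HMGN3, which were chosen by name and are 8 of the 31721 genes in the expression table. Their polyadenylated RNA was measured by RNA sequencing in A2780, an established human ovarian carcinoma cell line of epithelial morphology per the labels. The cells were kept for 24 hours in 1 of 4 conditions: DMSO, the solvent control; olaparib, an inhibitor of the DNA repair enzymes PARP1 and PARP2; palbociclib, an inhibitor of the cyclin D kinases CDK4 and CDK6; or olaparib and palbociclib together (Ola/PD in the labels), called the combination here. Each group had 2 libraries, labelled biological repeats, with no statement that they came from separate cultures, so p-values reflect only the spread of these samples, part of which may be technical. The labels state no dose. A single cell line was used, and no readout of protein, cell number or cell cycle phase was analysed here. In bulk RNA of this kind, fewer cells in a given phase and less RNA per cell cannot be told apart.

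HMG proteins are abundant non-histone chromatin proteins that come in 3 families. HMGA proteins bind the minor groove of AT-rich DNA through short AT-hook motifs and bend it at promoters and enhancers; they are high in embryos and in many carcinomas. HMGB proteins carry HMG boxes that bend DNA with little preference for sequence, and HMGN proteins bind the nucleosome itself and counter its compaction by linker histone H1.

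All 8 genes were well above the filter of a mean FPKM of at least 1 (FPKM, a level that scales sequenced fragments by exon length and library size). They lie, on GRCh38 with GENCODE v29, at 6:34236873-34246231 (HMGA1, plus strand), 12:65824131-65966295 (HMGA2, plus), 13:30456704-30617597 (HMGB1, minus), 4:173331695-173335125 (HMGB2, minus), X:150980509-150990775 (HMGB3, plus), 21:39342315-39349647 (HMGN1, minus), 1:26472450-26475972 (HMGN2, plus) and 6:79201245-79234738 (HMGN3, minus). All are protein-coding. The sources used here do not say whether reads were counted by strand, which matters most for HMGA2. On the opposite strand its locus holds the pseudogene RPSAP52, at a mean of 5.24 FPKM, and AC090673.1 and AC090673.2, at 1.65 and 3.21. AC107308.1, at 7.43 FPKM, lies there on the same strand as HMGA2, so counting by strand would not separate it.

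Promoters are shown for 3 genes whose RNA was lower with palbociclib in every setting tried and for HMGN3, whose call was not stable, so that the members can be seen side by side; the windows were chosen with these values known. Each sequence is 300 bases of RefSeq promoter (GRCh38.p14), from 250 bases before to 50 bases after an annotated start, 5′ to 3′ on the strand of the gene. Capitals mark a CCAAT box (CCAAT on either strand) or a cell cycle genes homology region (CHR; TTTGAA or TTTAAA on either strand). The regions are chr1:26472190-26472489 (plus) for HMGN2, chrX:150983085-150983384 (plus) for HMGB3, chr13:30465887-30466186 (minus) for HMGB1 and chr6:79234633-79234932 (minus) for HMGN3.
HMGN2: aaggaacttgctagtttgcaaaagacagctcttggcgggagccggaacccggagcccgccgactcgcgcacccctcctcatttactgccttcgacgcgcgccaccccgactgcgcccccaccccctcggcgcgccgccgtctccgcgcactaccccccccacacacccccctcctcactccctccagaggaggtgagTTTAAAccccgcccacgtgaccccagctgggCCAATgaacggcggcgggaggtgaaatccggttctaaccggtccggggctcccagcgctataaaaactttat
HMGB3: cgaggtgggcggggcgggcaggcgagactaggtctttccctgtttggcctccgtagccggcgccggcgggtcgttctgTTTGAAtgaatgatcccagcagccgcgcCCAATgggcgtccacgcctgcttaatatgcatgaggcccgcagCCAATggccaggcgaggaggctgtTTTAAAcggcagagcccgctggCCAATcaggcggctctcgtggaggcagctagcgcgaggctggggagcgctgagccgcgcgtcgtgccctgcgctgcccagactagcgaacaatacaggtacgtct
HMGB1: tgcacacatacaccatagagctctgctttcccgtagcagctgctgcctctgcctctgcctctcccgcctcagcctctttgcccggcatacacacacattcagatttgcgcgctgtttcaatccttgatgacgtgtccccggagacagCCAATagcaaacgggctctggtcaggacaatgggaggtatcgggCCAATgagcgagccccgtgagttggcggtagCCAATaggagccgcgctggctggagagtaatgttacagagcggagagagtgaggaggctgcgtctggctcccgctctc
HMGN3: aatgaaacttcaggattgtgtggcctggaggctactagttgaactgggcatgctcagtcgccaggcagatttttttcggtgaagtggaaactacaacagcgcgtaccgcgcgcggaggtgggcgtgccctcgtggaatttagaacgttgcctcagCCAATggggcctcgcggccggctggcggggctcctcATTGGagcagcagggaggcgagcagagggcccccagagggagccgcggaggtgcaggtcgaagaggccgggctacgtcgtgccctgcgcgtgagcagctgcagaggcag

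CCAAT and CHR elements are known from promoters of genes transcribed late in the cell cycle, where CCAAT is bound by NF-Y and CHR by the MuvB complexes. The HMGN2 window held 1 CCAAT box and 1 CHR, and the HMGB3 window held 3 CCAAT boxes and 2 CHRs. The HMGB1 window shown held 3 CCAAT boxes and no CHR, and the HMGN3 window held 2 CCAAT boxes and no CHR. HMGN1, which was also lower with palbociclib, matched HMGN3 in this, with 2 CCAAT boxes and no CHR. The table gave promoters for 6 of the 8 genes, in 10 entries, of which 8 held a CCAAT box and 4 a CHR. Entries of a gene differed: of the other HMGB1 entries, 1 held 1 CCAAT box and 1 CHR and the other held neither, the other HMGB3 entry held neither, and the HMGA1 entries held 1 CCAAT box each, 1 of them with a CHR. HMGB2 and HMGA2 had no entry. A CCAAT box was in 34.6% of all 35116 promoters of the same length and a CHR in 24%. None of the 10 entries held any of the E2F words TTTCCCGC, TTTGGCGC, TTTCGCGC or TTTGCCGC, which were in 3.31% of all promoters. These letter matches are descriptions and say nothing of binding.

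In DMSO the 8 genes differed widely in level. HMGA1 had the highest value at 526 ± 9.66 FPKM (SD, n = 2, as for every mean level here), followed by HMGN2 at 218 ± 13.3. An order of genes by FPKM rests on the exon lengths used, 2327 bases for HMGA1 and 15403 for HMGA2. By recovered reads HMGA2 stood above HMGA1 in DMSO, at 58258 and 53470 against 39287 and 36623. HMGA2, HMGB1, HMGN1 and HMGB2 lay close together, at 117 ± 0.861, 114 ± 2.23, 111 ± 0.652 and 110.1 ± 2.3 FPKM. Their order was not tested. HMGN3 came next at 83.4 ± 1.66, and HMGB3 was lowest at 36.5 ± 0.739. With palbociclib the order changed: HMGA2, at 127 ± 3.25 FPKM, stood just above HMGN2, at 122 ± 1.08, and HMGB2, at 52.1 ± 1.74, had dropped below HMGN3, at 75.3 ± 4.31. The reads recovered behind each value were many, from 1716 for HMGN3 in a combination library to 61307 for HMGA2 in a palbociclib library.

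**Figure D1:**
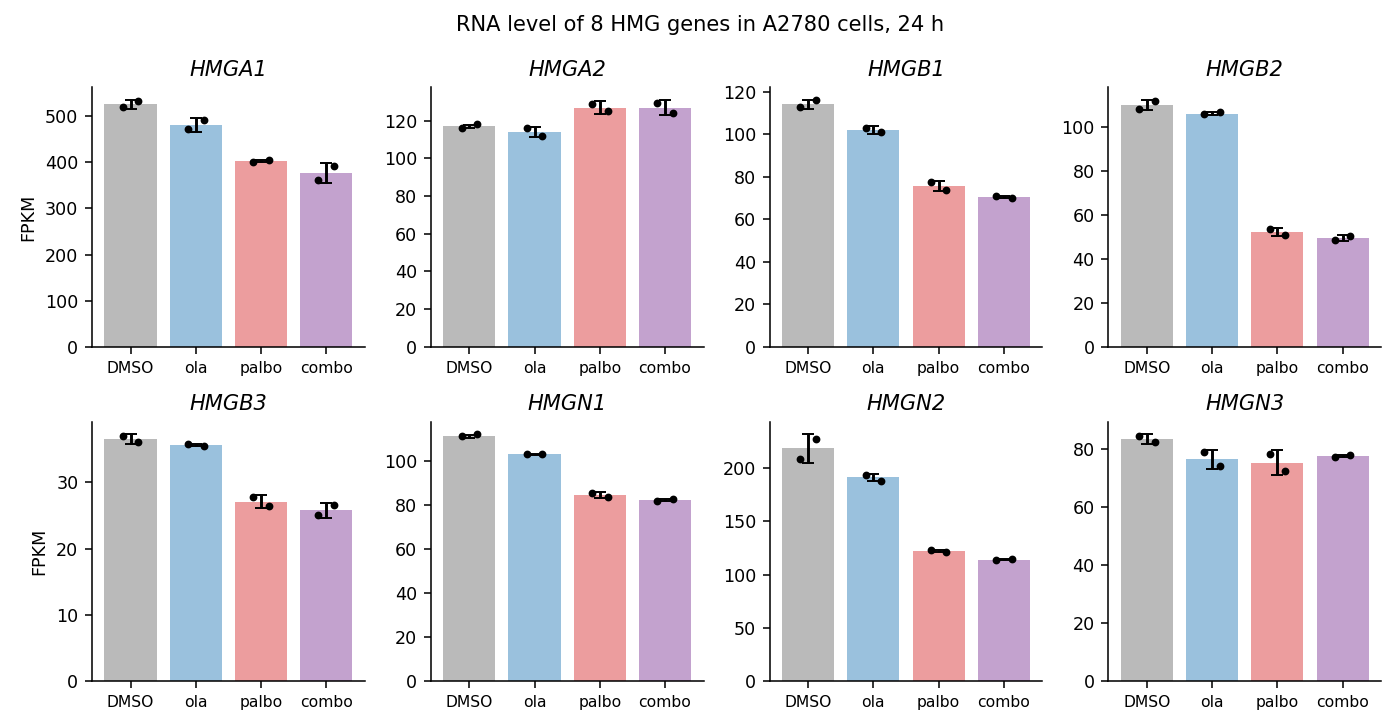
FPKM of the 8 HMG genes in each of the 8 libraries, 1 panel per gene, with groups on the x axis; points are libraries and bars are group means (n = 2). Relative to their own level, HMGB2 and HMGN2 show the widest gap between the libraries without palbociclib and those with it, while HMGA2 and HMGN3 stay nearly level.

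With palbociclib the RNA of 7 of the 8 genes was lower and that of HMGA2 was higher. Of all 12443 tested genes, 50.1% passed the threshold (an adjusted p below 0.05 in limma), 31.4% lower and 18.7% higher, so a change in itself was common; the median log2 fold change of the 8 genes was −0.40 against −0.05 over all tested genes. Each fold change below is a difference of log2(FPKM + 1), given with its standard error from limma. Olaparib alone moved 2 of the 8 past the threshold, both lower, where 14.6% of all tested genes passed, 10.5% lower and 4.13% higher, and the medians were −0.12 and −0.03. With the combination 6 were lower and HMGA2 was higher, against 56.8% of all tested genes past the threshold, 35.3% lower and 21.5% higher, with medians of −0.48 and −0.06. The 3 comparisons share the DMSO libraries. Without length or library rescaling to FPKM, the 8 genes together took 0.593% and 0.602% of the recovered reads in DMSO, 0.588% and 0.572% under olaparib, 0.532% and 0.526% under palbociclib, and 0.530% and 0.519% under the combination. On both measures the 4 libraries with palbociclib lay below the 4 without it.

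**Figure D2:**
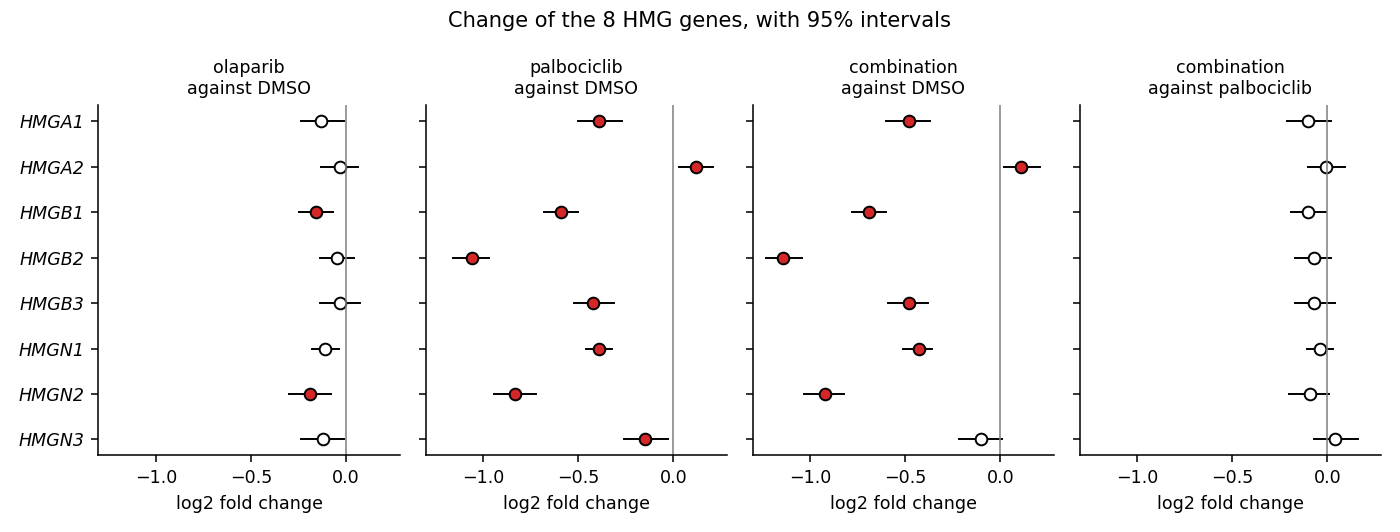
Log2 fold change of each HMG gene against DMSO for olaparib, palbociclib and the combination, with 95% intervals from limma. The last panel shows the combination against palbociclib. Against DMSO, HMGB2 has the lowest value with palbociclib, −1.06, and with the combination, −1.14, and HMGA2 alone lies above 0 in those comparisons.

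HMGB2, whose protein loosens and bends DNA in dividing cells, changed most. Its level was 108 and 112 FPKM in the DMSO libraries, 106 and 107 under olaparib, 53.4 and 50.9 under palbociclib, and 48.5 and 50.5 under the combination. All 4 libraries with palbociclib lay far below all 4 without it, and the palbociclib mean was 47.4% of the DMSO mean. The log2 fold change with palbociclib was −1.06 ± 0.04 (adjusted p = 2.5e-05), and only 27 of the 12443 tested genes had a lower one. With olaparib it was −0.05 ± 0.04 (adjusted p = 0.429), with a 95% interval from −0.14 to 0.04.

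HMGB1, the founding HMG box protein, acts in the nucleus as a DNA chaperone and outside the cell as an alarm signal. It stood at 113 and 116 FPKM in DMSO, 103 and 101 under olaparib, 77.3 and 73.8 under palbociclib, and 70.7 and 70.1 under the combination. The group means fell in the order DMSO, olaparib, palbociclib, combination. The last step did not pass the threshold (combination against palbociclib −0.10 ± 0.04, adjusted p = 0.249 in limma). The log2 fold change was −0.59 ± 0.04 under palbociclib (adjusted p = 6.02e-05) and −0.69 ± 0.04 under the combination (adjusted p = 1.96e-05). With quantile normalisation these values were −0.36 and −0.39, and both still passed. With olaparib it was −0.16 ± 0.04 (adjusted p = 0.0347), a call that was lost without either DMSO library, without either olaparib library, and with quantile normalisation (−0.04), TPM (−0.10) or no filter.

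HMGB3, an X-linked HMGB gene known from blood progenitor cells, had the lowest FPKM of the 8 genes. Its levels were 37 and 36 FPKM in DMSO, 35.7 and 35.5 under olaparib, 27.8 and 26.4 under palbociclib, and 25 and 26.6 under the combination. The libraries with palbociclib were again all below those without it. Against DMSO the log2 fold change was −0.42 ± 0.04 under palbociclib (adjusted p = 0.000327; −0.26 with quantile normalisation, still past the threshold) and −0.48 ± 0.04 under the combination (adjusted p = 0.000112; −0.27 with that scaling). With olaparib it was −0.03 ± 0.04 (adjusted p = 0.629).

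The 3 HMGB genes therefore differed in the size of their fall. Within each library, HMGB2 was 0.963 and 0.965 times HMGB1 in DMSO and 1.02 and 1.06 times under olaparib, but 0.690 and 0.689 times under palbociclib and 0.685 and 0.721 times under the combination. HMGB3 was 0.329 and 0.311 times HMGB1 in DMSO, and 0.346 and 0.351 times under olaparib, 0.359 and 0.357 times under palbociclib and 0.354 and 0.380 times under the combination, so the olaparib libraries lay near those with palbociclib. Such a ratio is free of library scaling and shows unequal change, not which gene changed.

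HMGN2, a nucleosome-binding protein that is high in dividing and immature cells, changed second most. Its libraries held 208 and 227 FPKM in DMSO, 193 and 188 under olaparib, 123 and 121 under palbociclib, and 114 and 115 under the combination. The DMSO libraries lay further apart than those of any other group. Palbociclib gave a log2 fold change of −0.83 ± 0.05 (adjusted p = 4.22e-05), with 103 tested genes lower, and the combination one of −0.92 ± 0.05 (adjusted p = 1.62e-05). With olaparib it was −0.19 ± 0.05 (adjusted p = 0.0381), and that call was lost under the same 3 settings and left-out libraries as that of HMGB1, and without either palbociclib library as well; its value was −0.07 with quantile normalisation.

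HMGN1, its close relative that limits phosphorylation of histone H3, had 111 and 112 FPKM in DMSO, 103 and 103 under olaparib, 85.6 and 83.7 under palbociclib, and 81.9 and 82.6 under the combination. The libraries within a group nearly coincided, and the combination did not pass the threshold against palbociclib (−0.04 ± 0.03, adjusted p = 0.548 in limma). For HMGN1 the log2 fold change was −0.39 ± 0.03 under palbociclib (adjusted p = 0.000111) and −0.11 ± 0.03 under olaparib (adjusted p = 0.0563). It was −0.43 ± 0.03 under the combination (adjusted p = 4.35e-05). Quantile normalisation shrank the palbociclib value to −0.17 and the combination value to −0.13, both still past the threshold.

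HMGN3 is best known from endocrine and nervous tissue. Its 84.6 and 82.3 FPKM in DMSO compared with 78.9 and 74.2 under olaparib, 78.4 and 72.3 under palbociclib, and 77.3 and 77.9 under the combination. The 3 treated groups overlapped one another and lay below DMSO. The palbociclib value, −0.15 ± 0.05 (adjusted p = 0.0439), passed the threshold in the fit as designed but in 7 of the 17 alternative settings, and it turned to 0.07 with quantile normalisation. Neither olaparib, at −0.12 ± 0.05 (adjusted p = 0.137), nor the combination, at −0.10 ± 0.05 (adjusted p = 0.116), passed. With quantile normalisation the combination value was 0.19 and past the threshold in the other direction (adjusted p = 0.0303).

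Within libraries the HMGN genes moved apart. HMGN2 was 1.88 and 2.03 times HMGN1 in DMSO and 1.43 and 1.45 times under palbociclib. Relative to HMGN3, HMGN2 was 2.46 and 2.76 times in DMSO, 2.45 and 2.54 times under olaparib, 1.56 and 1.68 times under palbociclib, and 1.47 and 1.47 times under the combination.

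The HMGA pair moved in opposite directions. HMGA1, the widely expressed member, held 519 and 533 FPKM in DMSO, 471 and 492 under olaparib, 401 and 404 under palbociclib, and 361 and 391 under the combination. Every library with palbociclib was below every library without it. Its log2 fold change was −0.39 ± 0.05 under palbociclib (adjusted p = 0.000713), −0.48 ± 0.05 under the combination (adjusted p = 0.000176) and −0.13 ± 0.05 under olaparib (adjusted p = 0.119).

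HMGA2, an oncofetal gene that the let-7 miRNAs repress, had 116 and 118 FPKM in DMSO, 116 and 112 under olaparib, 129 and 125 under palbociclib, and 129.6 and 124 under the combination. The libraries with palbociclib were all higher than those without it, by a small margin. The log2 fold change was 0.12 ± 0.04 under palbociclib (adjusted p = 0.0404) and 0.11 ± 0.04 under the combination (adjusted p = 0.0422). The size rested on scaling, since the palbociclib value was 0.32 with quantile normalisation, 0.22 with TPM and 0.20 with voom on recovered reads, all past the threshold. The combination value was 0.37, 0.25 and 0.21 in those settings, likewise past it. The palbociclib call was lost when any DMSO, olaparib or palbociclib library was left out and without the filter (adjusted p from 0.0507 to 0.18), always with a positive value. The combination call was lost in all of those settings and also without combination replicate 1 (adjusted p from 0.0523 to 0.172), again with positive values. The ratio of HMGA1 to HMGA2 within a library was 4.46 and 4.53 in DMSO, 4.05 and 4.38 under olaparib, 3.10 and 3.24 under palbociclib, and 2.78 and 3.16 under the combination.

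**Figure D3:**
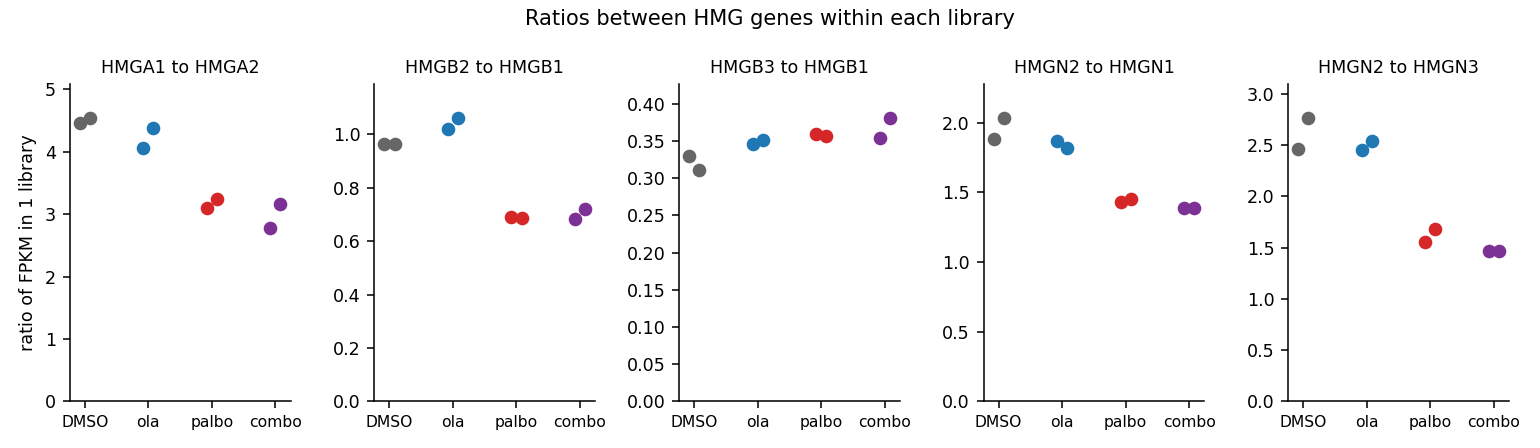
Ratios of FPKM between HMG genes within each library, by group; points are the 2 libraries of a group and each axis starts at 0. HMGB2 to HMGB1, HMGN2 to HMGN1 and HMGA1 to HMGA2 are all lower in the libraries with palbociclib than in those without it.

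Adding palbociclib to olaparib changed 7 of the 8 genes. Against olaparib, 6 were lower with the combination, from −0.32 ± 0.03 for HMGN1 (−0.13 with quantile normalisation, still past the threshold) to −1.09 ± 0.04 for HMGB2, HMGA2 was higher at 0.15 ± 0.04 (adjusted p = 0.021; 0.29 with quantile normalisation), and HMGN3, at 0.02 ± 0.05 (adjusted p = 0.763), did not pass (0.21 and past the threshold with quantile normalisation). Of all tested genes 44.4% passed in that comparison, 27.4% lower and 17% higher. The single drugs also differed from each other: palbociclib against olaparib gave 6 lower genes and HMGA2 higher, with HMGB2 at −1.01 ± 0.04 (adjusted p = 4.98e-05) and HMGN3 at −0.02 ± 0.05 (adjusted p = 0.75), while 34.6% of all tested genes passed, 20.5% lower and 14.1% higher. In that comparison HMGA2 (0.15) passed in 11 of the 17 alternative settings and HMGA1 in 16. For the combination against olaparib, HMGA2 passed in 14 of the 17.

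Adding olaparib to palbociclib moved none of the 8 genes past the threshold in limma, where 0.0241% of all tested genes passed, 0.0161% lower and 0.00804% higher. Only 1 of the 8, HMGB1, was below 0.05 before adjustment (log2 fold change −0.10 ± 0.04, adjusted p = 0.249), and voom on recovered reads called 0. The 95% interval of the added change ran from −0.17 to 0.02 for HMGB2 and from −0.20 to 0.01 for HMGN2, so a further fall of that size could not be told from none. The departure from additivity (how far the change from adding olaparib to palbociclib differed from that of olaparib alone) passed for none of the 8 genes and for 0.00804% of all tested genes, all of it lower. Only 1 of the 8, HMGN3, was below 0.05 before adjustment (0.17 ± 0.07, 95% interval 0.00 to 0.33, adjusted p = 0.472), and voom called 0.

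**Figure D4:**
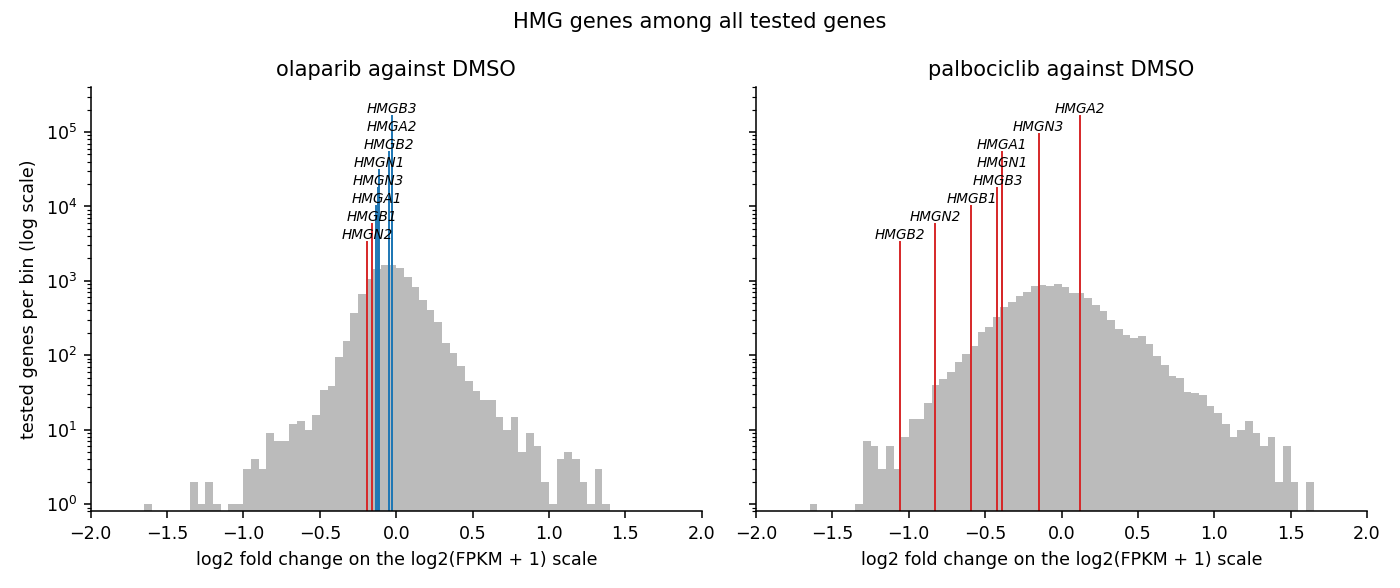
Log2 fold changes of all 12443 tested genes against DMSO as histograms, for olaparib and palbociclib, with the 8 HMG genes marked; 3 and 5 genes beyond the axis limit of 2 are not drawn. With palbociclib HMGB2 and HMGN2 lie in the lower tail, while with olaparib all 8 lie between −0.19 and −0.03 (with quantile normalisation HMGA2, HMGB2 and HMGB3 were at 0.08, 0.06 and 0.04); red lines mark genes past the threshold and blue lines the others.

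Processed pseudogenes, intronless copies pasted into the genome from spliced mRNA, are a particular problem for HMG genes because so many exist. The table held 60 rows named as pseudogenes of these genes, 20 of them of HMGB1, and 9 had a mean FPKM of at least 1. HMGB1P6, on chromosome 15 at 15:71164770-71165415, was listed at 112 ± 1.53 FPKM in DMSO, 89.9 under olaparib, 69.1 under palbociclib and 60.7 under the combination, close to the level of HMGB1. Its log2 fold change was −0.69 ± 0.06 under palbociclib (adjusted p = 0.0002) and −0.31 ± 0.06 under olaparib (adjusted p = 0.0256). It matches the HMGB1 transcript at 98.1% of 648 aligned bases. A 90-base stretch of both transcripts (GENCODE v29) is shown, the first from the HMGB1 start codon on that aligned without a gap. It holds 5 of the 9 mismatches of that alignment, which also has gaps elsewhere. Positions count from the A of the HMGB1 start codon, from 118 to 207. Capitals mark the 5 differences G156T, G168C, G181C, A195G and C197T, HMGB1 base first.
HMGB1: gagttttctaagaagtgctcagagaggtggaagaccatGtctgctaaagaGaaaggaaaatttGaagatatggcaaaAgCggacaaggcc
HMGB1P6: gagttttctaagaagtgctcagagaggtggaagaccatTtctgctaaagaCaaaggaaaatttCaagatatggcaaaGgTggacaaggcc

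How reads were divided between such near-identical copies was not tested, and the values of HMGB1 and of its pseudogene rows are uncertain to that extent. The recovered reads of all HMGB1 pseudogene rows came to 10.7% to 12.6% of those of HMGB1 across the libraries; HMGB1P6 is 646 bases long, against 7723 bases of exon for HMGB1, so a like FPKM stands for far fewer reads. For HMGN2 the share was 1.55% to 2.01%, and HMGN2P5, which differs from HMGN2 at 1 of 273 aligned bases, went from 21.6 FPKM in DMSO to 13.3 under palbociclib. For HMGA1, HMGB3 and HMGN1 it was at most 1.14%. Of the 9 pseudogene rows tested, 5 were lower with palbociclib and 1 was higher, where 31.4% of all tested genes were lower and 18.7% higher. The higher row was HMGA1P4 (0.65), which aligned with HMGA1 over 160 bases at 80.6% identity. When reads of each gene were summed with those of its pseudogenes, an alternative chosen after seeing the data, HMGB1 had a log2 fold change of −0.53 under palbociclib, against −0.52 without the sum by voom.

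**Figure D5:**
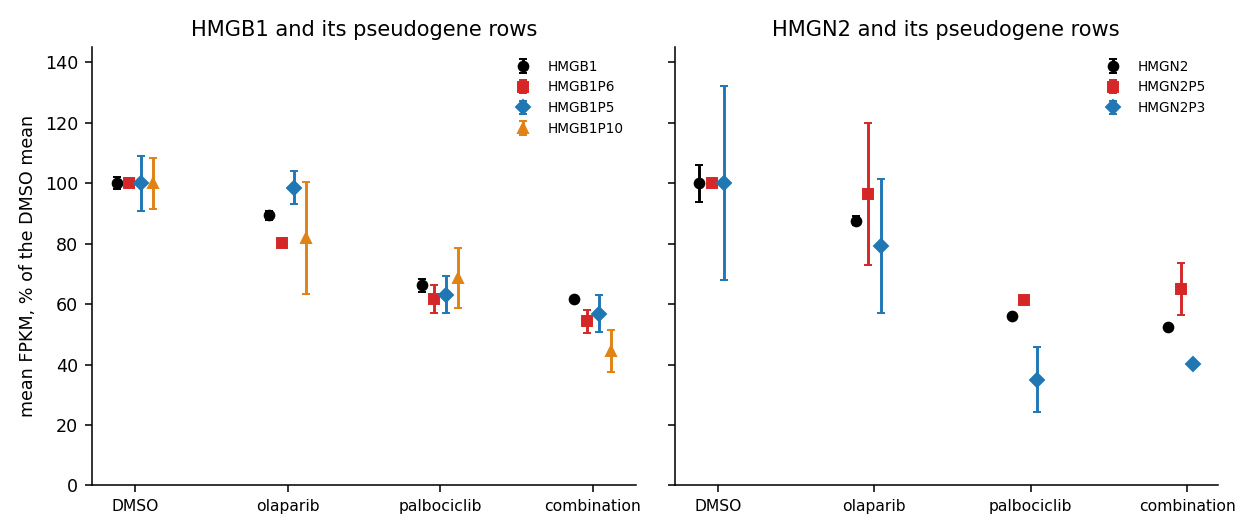
Group means of HMGB1 and HMGN2 and of their pseudogene rows with a mean FPKM of at least 1, as a percentage of each row's own DMSO mean; bars are the SD (n = 2). With palbociclib HMGB1 is at 66.2% and HMGN2 at 56% of DMSO, and each pseudogene row is below its DMSO mean as well.

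Other proteins with an HMG box or an HMGN domain gave a mixed picture. Of 17 tested, 7 were lower and 4 higher with palbociclib, with a median log2 fold change of −0.09, and the counts with the combination were the same. Over all tested genes 31.4% were lower and 18.7% higher with palbociclib, and the counts of this list are near those shares. With the combination the shares over all tested genes were 35.3% and 21.5%. SSRP1, a subunit of the histone chaperone FACT, fell by 0.85 ± 0.04 (adjusted p = 3.12e-05), and HMGN5, a further HMGN family member, by 0.63 ± 0.05 (adjusted p = 9.5e-05), from 24 FPKM in DMSO to 15.2. HMG20B, a subunit of a histone demethylase complex, rose by 0.48 ± 0.08 (adjusted p = 0.00219). HMGN4, named after its value was seen because it completes the HMGN family, was at 0.11 ± 0.06 (adjusted p = 0.162).

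Linker histones occupy nucleosome sites that HMG proteins also bind. Of 11 in the table, 3 passed the filter, which in polyadenylated RNA leaves out most replication-dependent histone genes. H1F0, a linker histone known from differentiated cells that no longer divide, fell from 89.2 FPKM in DMSO to 51.6 under palbociclib (−0.78 ± 0.05, adjusted p = 6.12e-05), and H1FX fell by 0.44 ± 0.13 (adjusted p = 0.0267). HIST1H1C rose from 18.2 to 26.4 FPKM (0.51 ± 0.06, adjusted p = 0.000543).

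Genes of the LIN28, let-7 and IGF2BP axis, which sets HMGA2 levels in embryonic cells, were also mixed. Of 13 tested, 5 were lower and 3 higher with palbociclib, near the shares over all tested genes (31.4% and 18.7%). The largest changes were in LIN28A, which blocks let-7 processing (−0.51 ± 0.04, adjusted p = 7.62e-05), DICER1, which cuts miRNA precursors (−0.47 ± 0.05, adjusted p = 0.000269), LIN28B (−0.45 ± 0.06) and AGO2 (−0.44 ± 0.08). The 3 higher genes, named after their values were seen, were MIRLET7BHG, IGF2BP3 and CCND2, at 0.32 ± 0.10, 0.25 ± 0.05 and 0.23 ± 0.04. Over all tested genes 35.3% were lower and 21.5% higher with the combination. With the combination 7 were lower and 4 higher, and this count dropped from 11 to 6 without either DMSO library or without the first combination library.

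Partners of HMG proteins were mostly lower with palbociclib. Over all tested genes 31.4% were lower and 18.7% higher with palbociclib, and 10.5% lower and 4.13% higher with olaparib. All 5 tested genes of the SET complex, which holds HMGB2, were lower, led by SET (−0.58 ± 0.04) and ANP32A (−0.51 ± 0.04). Of 14 nucleosome partners, 11 were lower, among them PCNA (−0.80 ± 0.03), the sliding clamp of replication, the histone variant gene H2AFZ (−0.71 ± 0.04) and the nucleolar chaperone gene NPM1 (−0.63 ± 0.04). With olaparib 3 of the 5 and 4 of the 14 were lower, counts that fell to 0 or 1 when a DMSO or olaparib library was left out.

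A reference list of 24 proliferation genes, chosen with results of these data known, was measured beside the HMG genes. Over all tested genes 31.4% were lower with palbociclib, 35.3% with the combination and 10.5% with olaparib. All 24 were lower with palbociclib (median log2 fold change −0.78) and with the combination (median −0.83), and 5 were lower with olaparib (median −0.09), a count of 0 when any DMSO or olaparib library was left out. HMGB2 and HMGN2 were below those palbociclib and combination medians, and the other 6 HMG genes were above them. The part of cell cycle state in the HMG values was not tested.

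Across the 8 libraries, the genes whose pattern was most like that of a given HMG gene, among 10167 coding genes, were the following, as Pearson r on log2(FPKM + 1); the libraries share groups, so r is a description. HMGB2 was closest to CDCA2, FOXM1 and NSD2 (each 0.998), of which FOXM1 is a transcription factor of G2 genes. HMGN2 was closest to SMC2 (0.999), a condensin subunit, and to ATAD2 and SMC1A (each 0.998). HMGB1 was closest to TMPO, MCM10 and ORC1 (each 0.999), the latter pair being replication initiation factors, and HMGB3 to MEA1 (0.998), NCAPH (0.997) and PLK1 (0.996). HMGN1 went with SFPQ, DDX46 and HAX1 (each 0.999), the first of them an RNA-binding protein, and HMGA1 with AHCY, CENPX and NMT1 (each 0.998). HMGA2 was most like USO1 (0.993), DNAJB14 (0.991) and GPCPD1 (0.99). HMGN3 had the lowest values, with ATRAID (0.973), MSMO1 (0.962) and OAT (0.952).

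The cells were checked against markers of their labelled type and of others. None of 8 epithelial and ovarian markers reached a mean FPKM of 1, with PAX8 listed at 0 in DMSO and olaparib, and their summed level was 0.438 to 0.483 FPKM in DMSO, 0.553 to 0.69 under olaparib, 1.13 to 1.14 under palbociclib and 1.22 to 1.45 under the combination. Of 4 mesenchymal markers, 3 passed the filter, and the 4 summed to 257 to 262 FPKM in DMSO and 335 to 359 under palbociclib. Most of that sum was VIM, at 250.4 ± 3.31 FPKM in DMSO and 338 ± 16.8 under palbociclib (log2 fold change 0.43 ± 0.04). CDH2 was at 0.21 ± 0.07 (adjusted p = 0.0311 in limma) and ZEB1 at −0.08 ± 0.06 (adjusted p = 0.294). Leukocyte, endothelial and erythroid markers were all below the filter, and 3 fibroblast markers summed to 9.49 to 10.8 FPKM over all libraries. The part of these marker shifts in the HMG values was not tested. In the 8 libraries the FPKM of all genes summed to 264453 to 295656, lowest with the combination. Rescaling to TPM moved the median log2 fold change of all genes with the combination from −0.06 to 0.06, and the higher share of the genes past the threshold went from 37.8% to 57.4% (46.9% with quantile normalisation, 51.3% with voom). With palbociclib that share was 37.3% as designed, 56.1% with TPM, 46.5% with quantile normalisation and 51.5% with voom, and with olaparib it was 28.2%, 66.5%, 60.2% and 53.2%. For the combination against olaparib it was 38.2% as designed and 53.9% with TPM, and for palbociclib against olaparib 40.8% and 51.4%. Under each of these scalings HMGA1, HMGB1, HMGB2, HMGB3, HMGN1 and HMGN2 were lower with palbociclib and with the combination, past the threshold.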

How the data were processed

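RNA was measured in 8 libraries, 2 per group. The NEBNext Ultra kit was used on polyA RNA, per the labels' protocols. The submitters' processing notes name GRCh38 (hg38), STAR 2.5.1b, HTSeq 0.6.0 and CASAVA 1.8 and give no role for any. The authors deposited FPKM values for 31721 Ensembl genes; strand use in counting was not stated there. GENCODE v29 supplied symbols, positions and exon lengths (30945 identifiers found). With those lengths, 91.3% of FPKM values gave whole reads within 0.01 reads, for 28635 genes (90.3%) in all libraries; voom on these reads tested 11140 genes.

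The deposited FPKM values were taken as log2(FPKM + 1) and fitted in limma 3.58.1 (R 4.3.3) with 1 mean per group, all 8 libraries, a trend on expression, 4 residual and 3.01 prior degrees of freedom, and two-sided tests. A mean FPKM of at least 1 was required (12443 genes tested, 19278 not), with Benjamini-Hochberg adjustment over all of them and a threshold of 0.05. The log2 scale with this pseudocount understates changes of low genes. The linear fit pools the spread of a gene over the 4 groups, since 2 libraries give little of their own. The empirical Bayes step then draws the spread of each gene toward a trend over all tested genes. The script was tested on simulated data. Libraries held 18158713 to 30122425 recovered reads. Chi-square per degree of freedom between the libraries of a group was 2.29 to 3.8, more than sampling noise gives.

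The 8 genes and the gene lists were chosen with earlier results of these data known. All 8 are named; of each list, up to 4 genes past the threshold with the largest change (some list results are not reported here); and for each of the 8 genes the 3 coding genes with the highest r. Alternatives were other scalings, pseudocounts and filters, a replicate block, each library left out, and voom.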

Additional observations from a re-analysis of the deposited data

How the results depend on the processing

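HMGA1, HMGB1, HMGB2, HMGB3, HMGN1 and HMGN2 stayed lower and past the threshold in all 17 alternatives for palbociclib and for the combination, each against DMSO; with palbociclib HMGB2 ranged from −1.10 to −0.85 and HMGN2 from −0.89 to −0.65. HMGN3 reversed with quantile normalisation, to 0.07 with palbociclib (adjusted p = 0.338) and 0.19 with the combination (adjusted p = 0.0303); the cause was not tested. The count with olaparib went from 2 to 0 with quantile normalisation, with TPM (0) and with no filter (0), and ranged from 0 to 2 over left-out libraries: 0 without either DMSO or either olaparib library, and 1 without either palbociclib library. With a library left out, 6 to 7 genes passed for palbociclib and for the combination against DMSO. A group left with 1 library is assumed to vary like the others. The share of all genes past the threshold ranged from 0.104% to 29.2% with olaparib over the alternatives, from 17.1% to 64.4% with palbociclib, from 21.2% to 69.5% with the combination, from 14.3% to 57.4% for the combination against olaparib, from 9.58% to 46.9% for palbociclib against olaparib, from 0% to 2.31% for the combination against palbociclib and from 0% to 1.47% for the departure from additivity.

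Replicate numbers shared across groups did not pair the libraries: the correlation of their deviations ran from −0.0467 to 0.0342. With the replicate block the 7 comparisons gave 2, 8, 7, 7, 0, 7 and 0 of the 8 genes, as without it. Depth was not the limit for these genes, each with at least 1716 reads in every library; 2 libraries per group limit the precision.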

Other observations

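Genes listed for HMGB1 receptors and secretion, a list that also holds cytokine and S100 genes, were mostly below the filter in this line. Of 11 in the table, 3 passed the filter. SDC1, a cell surface proteoglycan, fell from 81.9 ± 0.0435 FPKM (SD, n = 2) in DMSO to 55.1 ± 0.153 with palbociclib (−0.56 ± 0.05, adjusted p = 0.000129 in limma), and XPO1, the nuclear export receptor, fell by 0.31 ± 0.04 (adjusted p = 0.000862). AGER, which encodes the receptor RAGE, was at 2.51 ± 0.235 FPKM in DMSO and 3.42 ± 0.275 with palbociclib (0.33 ± 0.11, adjusted p = 0.0398).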
